A study of Mus musculus with 6 samples.

Results

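The 3 zona pellucida genes (Zp1, Zp2 and Zp3), the 2 oocyte growth factor genes (Gdf9 and Bmp15) and the 3 oocyte-secreted protein genes (Oosp1, Oosp2 and Oosp3) were followed as maternal transcripts that remained in mouse 2-cell embryos. They were taken by gene name, and all 8 were found among the 53023 genes of the deposited expression table. The embryos were of the ICR strain and came in 3 groups of 2 libraries, each library made from a pool of 5 embryos collected at 28 h post-insemination (hpi) after the zona pellucida had been removed. The non-injection group was left without an injection. The PIASy-WT group received mRNA for HA-tagged wild-type PIASy, a SUMO E3 ligase encoded by Pias4, at 100 ng per microlitre between 1.5 and 3 hpi. The PIASy-Mut group received, at the same dose and time, mRNA for a form of PIASy mutated in the RING finger and labelled as a SUMO ligase mutant. Injected zygotes were kept for culture when they showed fluorescence at 9 hpi. Both injected groups therefore carry RNA delivered into the cytoplasm of every embryo, and no library of embryos injected with an unrelated RNA was analysed here. The comparisons asked how much of these oocyte transcripts remained with wild-type PIASy against each control.

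The zona pellucida is the glycoprotein coat that the growing oocyte builds around itself from secreted ZP proteins, and it carries the sites at which sperm bind before fertilization. GDF9 and BMP15 are related ligands of the TGF-beta superfamily that the oocyte secretes to the surrounding granulosa and cumulus cells, which carry the receptors. The OOSP proteins are small secreted proteins made by the oocyte. These genes are transcribed during oocyte growth, their mRNAs are stored, and in the mouse most stored mRNA is removed between meiotic maturation and the 2-cell stage, when transcription from the embryo's own genome begins. Stored mRNAs are held with short poly(A) tails or lengthened and translated through sequences near their 3′ end.

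Each library held between 871663 and 1363928 fragments on genes, so that 3 fragments, used as the limit of detection, stood at 2.20 to 3.44 CPM (fragments-per-million on genes). Pias4 was at 2.98 and 3.59 FPKM (fragments per kilobase of transcript, per-million) without injection, at 862 and 611 with PIASy-Mut and at 609.9 and 579 with PIASy-WT, so the injected RNA was present where the labels place it. All 7 markers of the 2-cell embryo were detected in every library, with a summed level of 1714 to 1808 CPM without injection, 1723 to 2094 with PIASy-Mut and 960 to 1328 with PIASy-WT. Of 12 cumulus and granulosa markers, 3 to 7 were above 0 in a library, and Amh, Foxl2, Inha and Inhba were at 0 in every library. The summed level of these markers was 20.5 to 23.0 CPM without injection, 20.3 to 26.4 with PIASy-Mut and 19.1 to 22.6 with PIASy-WT. Of 6 sperm markers, 1 to 3 were above 0, with a sum of 1.94 to 4.399 CPM over all libraries. The values are shares of each library, so total RNA per embryo was not compared, and fewer cells and less RNA per cell cannot be told apart in pooled embryos.

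The ends of the transcripts are shown because the cDNA was primed on poly(A) tails, so that a change in tail length and a change in amount cannot be told apart, and because the ZP mRNAs end unlike most others. The 3′ untranslated region (UTR) of the principal transcript was 34 bases long in Zp1, 49 in Zp2 and 13 in Zp3, against a median of 850 bases over 9847 protein-coding genes tested. Of those genes, 2.79% had a shorter one than Zp1 and 1.99% a shorter one than Zp3. Gdf9 had 360 bases, Bmp15 1523, Oosp1 230, Oosp2 138 and Oosp3 175. Below, 30 bases that hold the polyadenylation hexamer are given 5′ to 3′ as mRNA-sense DNA from the GRCm38 (mm10) sequence, with AATAAA in capitals and, in Gdf9, TTTTAT, the core of the cytoplasmic polyadenylation element, also in capitals.
Zp1: cagatattaaatggactcAATAAAccattg
Zp2: tcactgattggacttgcaAATAAAgagact
Zp3: accttgtatcccttccgcAATAAAagaaga
Gdf9: ggTTTTATgtgacggaagAATAAActgttg
Bmp15: attttcttaatcttaaagAATAAAttttca
Oosp2: attcctatacatcaatgaAATAAAggctca
Oosp3: ctgtaaccacaacctataAATAAAacattt
Oosp1 held neither AATAAA nor ATTAAA in its last 40 bases and is not shown, whereas 76.4% of the 9847 genes held one of them there on the mRNA strand. In Zp3 the hexamer overlaps the TAA stop codon, so the coding sequence and the processing signal share bases. TTTTAT or TTTTAAT, searched on the mRNA strand in the last 100 bases, was found 1 time in Gdf9, 2 times in Oosp3 and in none of the other 6 genes, against 19.0% of all 9847 genes with at least 1 match. A match is given as a description of the letters and not as a working site.

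The 8 genes covered a wide range of levels per length. Oosp1, at 2428 and 1971 FPKM in the non-injection libraries, and Oosp3, at 2245 and 2297 FPKM, were the highest pair in all 6 libraries and stood between the 10th and the 27th place among all 53023 genes. Bmp15 came next below this pair in every library. Gdf9 and Oosp2 followed in the non-injection libraries, where their order turned between the replicates and did not differ beyond their spread. Zp3 was sixth without injection, Zp2 seventh and Zp1 eighth. The order of these 3 was the same with PIASy-Mut, where in replicate 1 Oosp2 came between Zp2 and Zp1, which put Zp2 sixth. In both PIASy-WT libraries Zp2 stood sixth and Zp3 fell below it, to the seventh place in replicate 1 and to the eighth, under Zp1, in replicate 2. The plot of FPKM by library shows these levels with their counting error.

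**Figure D1:**
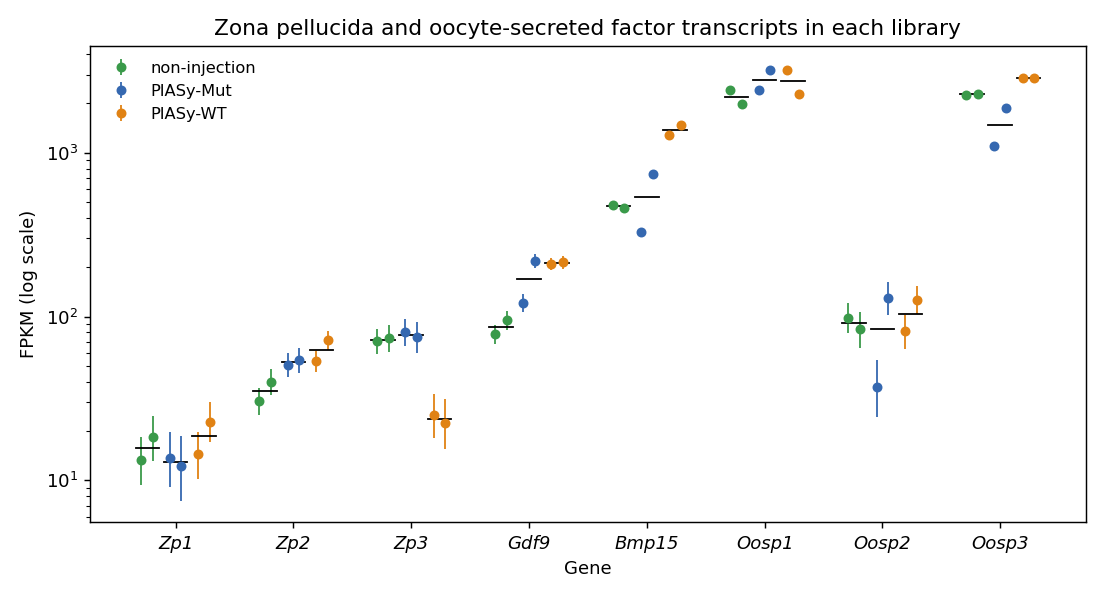
FPKM on a log axis for each of the 8 genes, with 1 point per library, a bar for the 95% Poisson interval of its fragments (counting error only) and a black line at the mean of the 2 libraries of a group. The PIASy-WT points of Zp3 sit at 25.1 and 22.4 FPKM, below all 4 other libraries, while those of Bmp15 sit at 1283 and 1478 FPKM, above all 4.

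Zp3 was the gene of the 8 whose level differed past the test, and it was lower with wild-type PIASy. Zp3 encodes the ZP glycoprotein required with ZP2 for a zona to form, and lies at chr5:135980099-135988624 on the plus strand (mm10; ENSMUSG00000004948.12). Its level was 70.9 and 73.5 FPKM without injection, 80.6 and 74.6 FPKM with PIASy-Mut and 25.1 and 22.4 FPKM with PIASy-WT. Both PIASy-WT libraries lay below the 4 others, which were close together. The mean was 72.2 ± 1.83 FPKM (SD, n = 2) without injection, 77.6 ± 4.23 with PIASy-Mut and 23.7 ± 1.93 with PIASy-WT. Behind these stood 128 and 110, 110 and 86, and 44 and 34 fragments. On the log2(FPKM + 1) scale, the difference of PIASy-WT from non-injection was -1.57 (SE 0.23, 95% interval -2.12 to -1.02), which is 2.97-fold lower (limma, adjusted p = 0.0292). Against PIASy-Mut it was -1.67 (SE 0.23, -2.22 to -1.12), or 3.18-fold lower (limma, adjusted p = 0.0240). These 2 comparisons share the PIASy-WT libraries. PIASy-Mut and non-injection differed by 0.10 (-0.45 to 0.65). The fall did not reach the further limit of a log2 fold change of -2. Leaving out either non-injection or either PIASy-WT library left a difference from non-injection of -1.65 to -1.49 with adjusted p values between 0.155 and 0.244, and in those fits no gene of 16100 passed (2590 to 2991 had an unadjusted p under 0.05). Against PIASy-Mut it passed without PIASy-Mut replicate 2 and missed the threshold without each of the other 5 libraries. The calls given below for other genes were lost in the same fits.

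In the same comparison, 1 of the 8 genes passed as lower against non-injection and 0 passed as higher (limma). Over all 16100 genes tested, 5.76% passed as lower and 1.03% as higher, so 1 lower gene in 8 gives no count that stands out from the background. With the further limit of a 2 in log2 fold change, 0 of the 8 passed in either PIASy-WT comparison; over all genes 0.602% then passed as higher and 3.81% as lower against non-injection, and 0.516% and 4.06% against PIASy-Mut. At an unadjusted p under 0.05, 3 of the 8 were higher (Zp2, Gdf9 and Bmp15), beside 10.6% of all genes higher and 17.6% lower. With voom on the recovered fragments 2 passed as higher (Gdf9 and Bmp15), beside 4.53% of all genes higher and 12.0% lower. Against PIASy-Mut, 1 passed as lower, where the background was 6.01%, and 0 as higher, where it was 0.820%. There, 2 were higher at an unadjusted p under 0.05 (Bmp15 and Oosp3), beside 9.46% of all genes higher and 18.2% lower, and 2 passed as higher with voom, beside 3.87% higher and 10.8% lower. The counts of other gene lists at these looser limits, given below, are to be read against the same shares. The median difference of the 8 genes was 0.31 against non-injection, beside 0.01 over all genes, and 0.42 against PIASy-Mut, beside -0.03 over all genes.

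Neither Zp2 nor Zp1 passed as lower beside Zp3. Zp2, which encodes the ZP protein whose N-terminal region is cleaved after fertilization, lies at chr7:120126772-120145291 on the minus strand (ENSMUSG00000030911.7). It stood at 30.4 and 39.9 FPKM without injection, 50.9 and 54.3 with PIASy-Mut and 53.2 and 71.5 with PIASy-WT. The non-injection libraries were the lowest, and the ranges of both injected groups overlapped. The difference of PIASy-WT from non-injection was 0.81 (SE 0.27, 0.14 to 1.48) and did not pass over all genes (limma, adjusted p = 0.123). Against PIASy-Mut it was 0.23 (-0.44 to 0.90). Zp1, which encodes the protein that cross-links ZP filaments, lies at chr19:10914287-10920632 on the minus strand (ENSMUSG00000024734.8) and was the least abundant of the 3 zona transcripts except in PIASy-WT replicate 2. Its level was 13.3 and 18.3 FPKM without injection, 13.7 and 12.2 with PIASy-Mut and 14.5 and 22.8 with PIASy-WT. The non-injection libraries overlapped both injected groups, and both PIASy-Mut libraries lay below both PIASy-WT libraries. These values rest on 21 to 52 fragments, and the difference of PIASy-WT from non-injection was 0.21 with an interval of -0.61 to 1.03.

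The makeup of the zona transcripts differed between groups within libraries, a comparison that library scaling does not touch. The ratio of Zp2 to Zp3 FPKM was 0.429 and 0.543 without injection, 0.631 and 0.729 with PIASy-Mut and 2.12 and 3.20 with PIASy-WT. Zp3 thus exceeded Zp2 in all 4 control libraries and was below it in both PIASy-WT libraries. The ratio of Zp1 to Zp3 was 0.163 to 0.249 in the 4 control libraries and 0.577 and 1.02 with PIASy-WT. The ratio of Zp1 to Zp2, by contrast, was 0.438 and 0.458 without injection, 0.269 and 0.224 with PIASy-Mut and 0.272 and 0.319 with PIASy-WT, so that all 4 injected libraries lay below the non-injection libraries, and the highest PIASy-Mut library and the lowest PIASy-WT library were close together. The differences of Zp2 and Zp3 carried opposite signs, and the summed zona level did not set PIASy-WT apart. It was 203 and 242 CPM without injection, 272 and 271 with PIASy-Mut and 207 and 269.7 with PIASy-WT. With 2 libraries a group an exact permutation test has 0.333 as its smallest two-sided p, and these ratios were left untested. They are drawn in the plot of ratios within libraries.

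**Figure D2:**
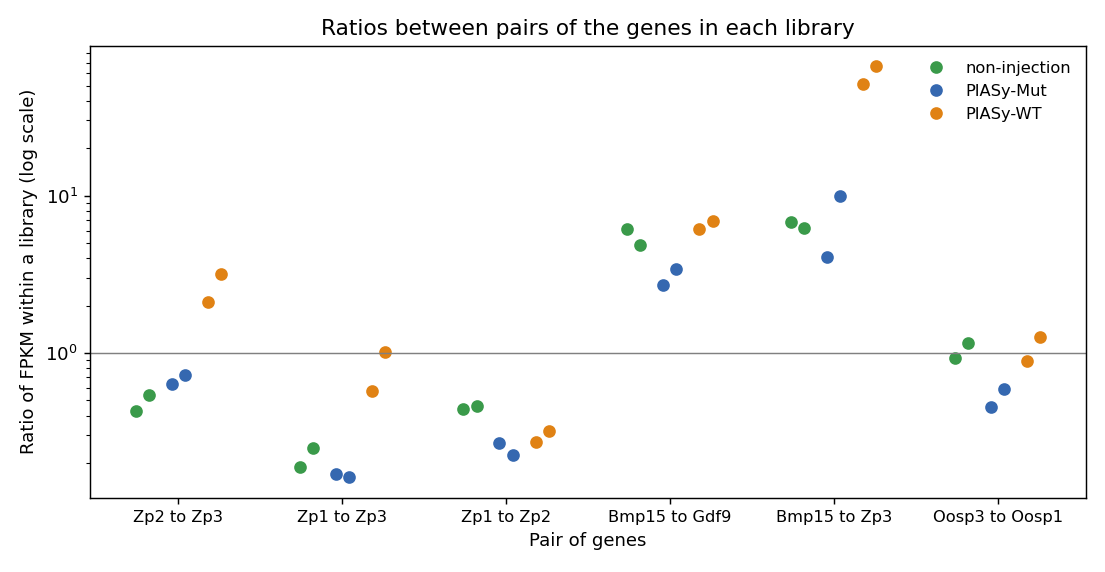
Ratio of FPKM between pairs of genes within each library, on a log axis with a grey line at 1, where both genes of a pair have the same level; 1 point per library. The Zp2 to Zp3 points cross the line only with PIASy-WT, at 2.12 and 3.20, and the Bmp15 to Zp3 points rise from 4.07 to 9.98 in the control libraries to 51.1 and 66.1.

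The genes that act on the zona genes or with the zona at fertilization were read next, as a list of 13 of which 10 passed the filter on low values. In limma 0 of the 10 passed in any of the 3 comparisons. At an unadjusted p under 0.05, 3 were higher and 2 lower with PIASy-WT against non-injection, and 2 were higher and 1 lower against PIASy-Mut; voom called 1 higher in each. Over all genes the shares at that p were 10.6% higher and 17.6% lower, and 9.46% and 18.2%. The median difference was 0.51 from non-injection and 0.36 from PIASy-Mut, beside 0.01 and -0.03 over all genes. Figla, which encodes the basic helix-loop-helix factor that activates the Zp genes in oocytes, had a difference of 1.89 (SE 0.49, adjusted p = 0.0708, limma) from non-injection. Izumo1r, which encodes the egg receptor for sperm IZUMO1, had one of 2.16 (SE 0.52, adjusted p = 0.0615, limma). From PIASy-Mut the differences were 1.34 (adjusted p = 0.140, limma) for Figla and 1.00 (adjusted p = 0.273) for Izumo1r. Lhx8, which encodes a LIM homeobox factor of the oocyte, had differences of 0.96 (SE 0.34, adjusted p = 0.132, limma) from non-injection and 1.39 (SE 0.34, adjusted p = 0.0621) from PIASy-Mut. The 2 genes lower at the unadjusted limit against non-injection were Sohlh1, which encodes another oocyte helix-loop-helix factor (-1.11, SE 0.45, adjusted p = 0.172, limma), and Cd9, which encodes an egg surface tetraspanin needed for fusion with sperm (-0.86, SE 0.31, adjusted p = 0.137). From PIASy-Mut these were 0.37 (adjusted p = 0.621, limma) and -0.86 (adjusted p = 0.139). Sohlh1 had no fragment in both PIASy-Mut libraries and in PIASy-WT replicate 1, so its differences lie at the floor and rest on few libraries. All 5 genes were picked out after their values were seen.

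The 2 oocyte growth factor transcripts had their highest group means with PIASy-WT, without passing the test. Bmp15 lies at chrX:6314107-6320721 on the minus strand (ENSMUSG00000023279.7). Its level was 482 and 461 FPKM without injection, 328 and 745 with PIASy-Mut and 1283 and 1478 with PIASy-WT. Both PIASy-WT libraries were above the 4 others, and the PIASy-Mut libraries lay on either side of the non-injection libraries. The means were 471 ± 15.0 FPKM (SD, n = 2) without injection, 536 ± 295 with PIASy-Mut and 1381 ± 138 with PIASy-WT. The difference of PIASy-WT from non-injection was 1.55 (SE 0.41, 0.55 to 2.54), a 2.92-fold higher level whose adjusted p of 0.0737 in limma missed the threshold. Against PIASy-Mut it was 1.48 (SE 0.41, 0.48 to 2.47), or 2.78-fold, with an adjusted p of 0.0824 in limma. The counts behind Bmp15 were high, 1036 to 5204 fragments, so counting error was small beside the 2.27-fold gap between the PIASy-Mut libraries. Bmp15 passed against non-injection when either PIASy-Mut library was left out of the shared fit (adjusted p = 0.0234 and 0.0223, limma), and its difference from PIASy-Mut depended on which PIASy-Mut library stayed: it was 2.07 without replicate 2 (adjusted p = 0.0217) and 0.89 without replicate 1 (adjusted p = 0.122, limma).

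Gdf9 lies at chr11:53431023-53437904 on the plus strand (ENSMUSG00000018238.6). It was at 78.0 and 94.9 FPKM without injection, 121 and 219 with PIASy-Mut and 210 and 214 with PIASy-WT. The non-injection libraries were the lowest, PIASy-Mut replicate 2 was the highest of all 6, and PIASy-WT therefore overlapped PIASy-Mut. The difference of PIASy-WT from non-injection was 1.29 (SE 0.33, 0.48 to 2.10), or 2.44-fold, and did not pass (limma, adjusted p = 0.0708). PIASy-Mut also differed from non-injection by 0.91 (0.10 to 1.72; unadjusted p = 0.0331, adjusted p = 1, limma), while PIASy-WT differed from PIASy-Mut by 0.38 (-0.43 to 1.19). In the mutant group Gdf9 was above both non-injection libraries in both libraries and Bmp15 in 1 of them, a contrast between the 2 genes that was not tested. Within libraries the ratio of Bmp15 to Gdf9 was 6.18 and 4.85 without injection, 2.72 and 3.40 with PIASy-Mut and 6.12 and 6.92 with PIASy-WT. It was lowest in both PIASy-Mut libraries.

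**Figure D3:**
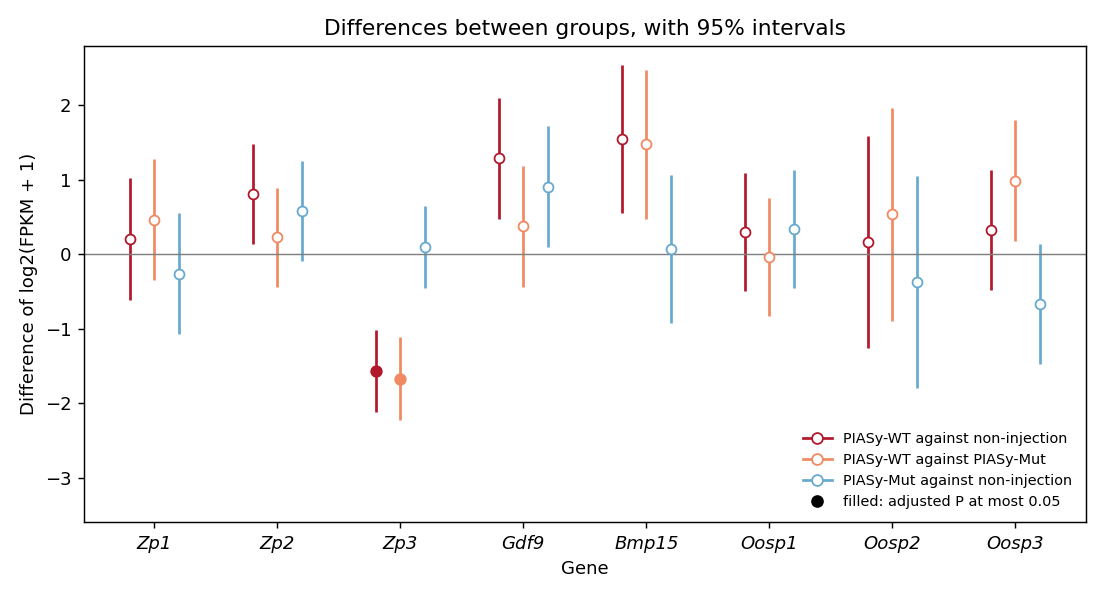
Difference of log2(FPKM + 1) between groups for each gene, with 95% intervals from the limma fit over all 6 libraries; filled points passed an adjusted p of at most 0.05 over 16100 genes. Zp3 is the gene with filled points, at -1.57 and -1.67, and Bmp15 has the highest points, at 1.55 and 1.48, both open.

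The receptors, SMAD proteins and ID target genes through which GDF9 and BMP15 signal were taken as a list of 17, of which 14 passed the filter. Against non-injection 2 of the 14 passed as higher in PIASy-WT and 0 as lower (limma). These 2, Id2 and Id3, also passed as higher against PIASy-Mut, where again 0 passed as lower. At an unadjusted p under 0.05, 3 were higher and 2 lower against non-injection, and 3 higher and 1 lower against PIASy-Mut. With voom 3 were higher and 1 lower in each. Over all genes 1.03% and 0.820% passed as higher in limma, 10.6% and 9.46% were higher at the unadjusted limit, and voom called 4.53% and 3.87% higher. Id2 and Id3 encode inhibitors of basic helix-loop-helix factors and are classical targets of BMP signalling. Id3 was at 2.46 and 3.46 FPKM without injection, 8.11 and 6.41 with PIASy-Mut and 32.9 and 26.7 with PIASy-WT, a difference of 2.96 (SE 0.32, adjusted p = 0.0224, limma) from non-injection and of 1.90 (adjusted p = 0.0315) from PIASy-Mut. Both PIASy-WT libraries were above all others, and both PIASy-Mut libraries were above the non-injection libraries. Behind these levels of Id3 stood 6 and 7, 15 and 10, and 78 and 55 fragments, so the values of both control groups rest on few fragments. Id2 was at 39.1 and 25.03, 26.6 and 33.9, and 110.48 and 106 FPKM in the same order, with differences of 1.76 (SE 0.30, adjusted p = 0.0332, limma) and 1.81 (adjusted p = 0.0303). Id1, the third ID gene of the list, carried the opposite sign, -1.28 (SE 0.45, adjusted p = 0.133, limma) against non-injection and -0.86 (adjusted p = 0.278) against PIASy-Mut. Smad7 had the lowest differences of the list, -1.85 (SE 0.55, adjusted p = 0.0925, limma) and -1.85 (adjusted p = 0.0938). The difference was positive in 9 of the 14 genes against non-injection and in 6 against PIASy-Mut. The median difference over the 14 genes was 0.26 from non-injection and -0.35 from PIASy-Mut, so the list as a whole did not keep 1 direction. Whether BMP15 or GDF9 protein acted on the embryos was not measured.

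The 3 Oosp genes lie beside one another on chromosome 19, Oosp2 at chr19:11647279-11660559 and Oosp1 at chr19:11667460-11691150 on the minus strand, and Oosp3 at chr19:11697055-11711874 on the plus strand (ENSMUSG00000055895.6, ENSMUSG00000041857.10 and ENSMUSG00000055933.13). None of them passed in any comparison in limma over all 6 libraries; at an unadjusted p under 0.05, Oosp3 was higher in PIASy-WT than in PIASy-Mut, and it passed that comparison with voom and in limma without PIASy-Mut replicate 2 (1.38, adjusted p = 0.0234), but not without PIASy-Mut replicate 1 (0.61, adjusted p = 0.156). Oosp1 was at 2428 and 1971 FPKM without injection, 2404 and 3180 with PIASy-Mut and 3208 and 2266 with PIASy-WT, and the 3 groups overlapped. Its difference of PIASy-WT from non-injection was 0.30 (-0.49 to 1.09), which leaves room for a level 1.402-fold lower or 2.13-fold higher. Oosp3 was at 2245 and 2297 FPKM without injection, 1096 and 1871 with PIASy-Mut and 2840.08 and 2854 with PIASy-WT. Its groups did not overlap, with PIASy-Mut lowest and PIASy-WT highest. The difference of PIASy-WT was 0.33 (-0.48 to 1.13) from non-injection and 0.99 (SE 0.33, 0.18 to 1.80; adjusted p = 0.119, limma) from PIASy-Mut. Part of Oosp3 overlaps an exon of the pseudogene Gm19224 on the other strand, to which 0 fragments were assigned in all 6 libraries. As the use of strand was not given, this 0 does not tell whether fragments in the overlap were counted.

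Oosp2 was the least abundant of the 3, at 98.4 and 83.5 FPKM without injection, 37.2 and 130.29 with PIASy-Mut and 81.2 and 127 with PIASy-WT. Its replicates were the furthest apart of the 3 genes in both injected groups. Without injection those of Oosp1 were, at 1.23-fold against 1.18-fold for Oosp2. The PIASy-Mut libraries differed 3.51-fold and were the lowest and the highest of all 6. With 26 and 77 fragments, their counting intervals did not touch (24.3 to 54.4 and 103 to 163 FPKM). The interval of the difference between PIASy-WT and non-injection, -1.26 to 1.59, was the widest among the 8 genes, and a change of either sign was not detectable. Although the 3 genes are neighbours, their transcripts did not keep a fixed ratio: Oosp3 to Oosp1 was 0.925 and 1.17 without injection, 0.456 and 0.588 with PIASy-Mut and 0.885 and 1.26 with PIASy-WT, so the PIASy-Mut libraries had the lowest ratios. The ratio of Oosp1 to Oosp2 ran from 17.8 to 39.5 in 5 libraries and was 64.7 in PIASy-Mut replicate 1.

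Between the replicates, the PIASy-Mut libraries were the furthest apart for 4 of the 8 genes. Replicate 2 was higher than replicate 1 by 1.82-fold for Gdf9, 2.27-fold for Bmp15, 3.51-fold for Oosp2 and 1.71-fold for Oosp3, but the pair differed by 1.08-fold for Zp3, 1.07-fold for Zp2 and 1.13-fold for Zp1. The PIASy-WT replicates differed by at most 1.58-fold (Zp1) and the non-injection replicates by at most 1.37-fold (Zp1). In PIASy-Mut against non-injection 0 of the 8 genes passed in limma, with voom or under any other setting tried, and 1 (Gdf9, higher) had an unadjusted p under 0.05, beside 2.37% of all genes higher and 2.09% lower. The background in that comparison was 0.00621% called higher, 1 gene of 16100, and 0% lower. Counted without a test, 2 of the 8 genes, Bmp15 and Oosp3, had both PIASy-WT libraries above the 4 others, beside 19.9% of all genes tested. For 1 gene, Zp3, both were below, beside 24.4%.

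The summed level of the 8 genes was 6110 and 5707 CPM without injection, 4785 and 7713 with PIASy-Mut and 10069.3 and 9865 with PIASy-WT. Both PIASy-WT libraries were above the 4 others, and the PIASy-Mut pair spanned the non-injection pair. The mean of PIASy-WT was 1.69 times that of non-injection (SD of the ratio 0.085) and 1.60 times that of PIASy-Mut (SD 0.53). Leaving out 1 library at a time gave 1.63 to 1.75 against non-injection and 1.29 to 2.08 against PIASy-Mut, the latter set by which PIASy-Mut library stayed. Without Bmp15, a sum added after the values were seen, the other 7 genes stood at 4636 and 4298 CPM without injection, 3781 and 5434 with PIASy-Mut and 6143 and 5342 with PIASy-WT, so that PIASy-WT overlapped PIASy-Mut. The growth factors carried most of the gain, at 1633 and 1602 CPM without injection, 1249 and 2724 with PIASy-Mut and 4352 and 4957 with PIASy-WT. The Oosp genes stood at 4274 and 3863, 3264 and 4719, and 5511 and 4638 CPM in the same order, and the ranges of PIASy-Mut and PIASy-WT overlapped. Bmp15 alone made up 24.1% and 24.7% of the fragments of the 8 genes without injection, 20.98% and 29.5% with PIASy-Mut and 39.0% and 45.9% with PIASy-WT. Zp3 made up 1.54% and 1.70%, 2.23% and 1.28%, and 0.330% and 0.29985%. The plot of the summed level shows how each gene adds to it.

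**Figure D4:**
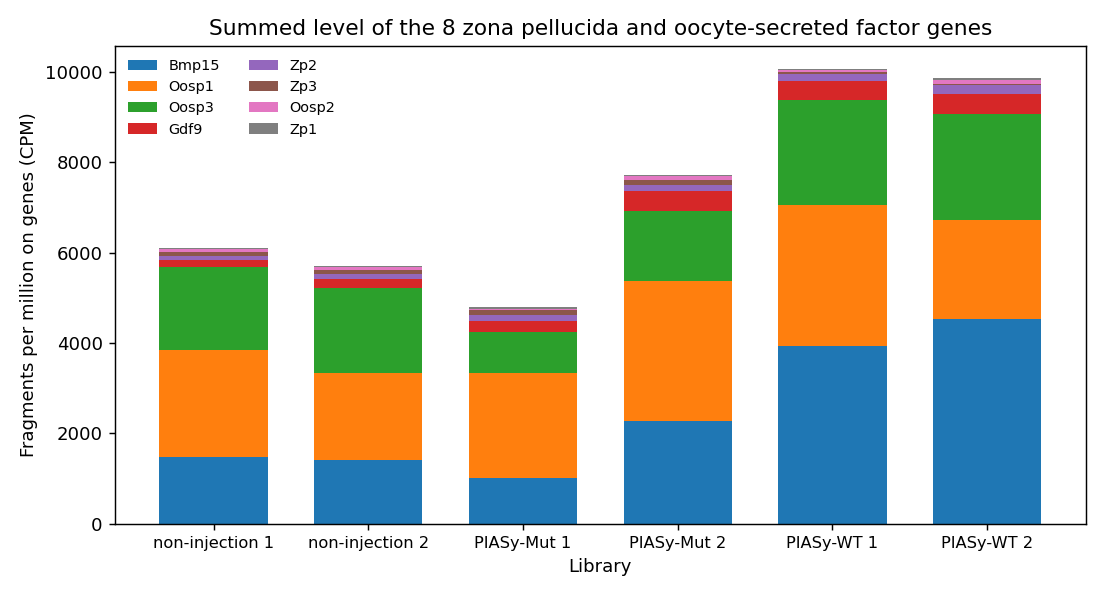
Summed level of the 8 genes in each library in CPM, as bars from 0 stacked by gene. The PIASy-WT bars reach 10069.3 and 9865 CPM against 4785 to 7713 in the 4 control libraries, and the Bmp15 segment at the base is the part that grows most.

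Other transcripts stored by the oocyte were read as a list of 21 genes, all of which passed the filter. In limma 0 of the 21 passed in any comparison. At an unadjusted p under 0.05, 4 were higher and 2 lower with PIASy-WT against non-injection, and 3 were higher and 1 lower against PIASy-Mut. Over all genes 10.6% were higher and 17.6% lower, and 9.46% and 18.2%. With voom 4 of the 21 were higher and 1 lower, and 3 higher and 0 lower, beside 4.53% and 12.0%, and 3.87% and 10.8%, of all genes. The difference was positive in 14 of the 21 against non-injection (median 0.25) and in 12 against PIASy-Mut (median 0.37). Their summed level was 27433 to 31901 CPM without injection, 22532 to 27569 with PIASy-Mut and 33086 to 39227 with PIASy-WT, and the PIASy-WT range lay above the others. Btg4, which is in this list and in the decay list described next, carried the gap to non-injection. Without it, a sum added after the values were seen, the 20 other genes stood at 28713 and 24448 CPM without injection, 21234 and 24164 with PIASy-Mut and 30653 and 25367 with PIASy-WT. PIASy-WT then overlapped non-injection and still lay above both PIASy-Mut libraries.

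Genes of maternal mRNA deadenylation and decay were read as a list of 14, of which all passed the filter. Their summed level was 6739 to 7027 CPM without injection, 4094 to 7338 with PIASy-Mut and 12918 to 14200 with PIASy-WT, which lay above both other groups. Btg4, which encodes an adaptor that brings the CCR4-NOT deadenylase to maternal mRNAs and was picked out after its values were seen, made up 31.7% to 46.4% of this sum in the 4 control libraries and 60.4% and 59.8% with PIASy-WT. It was at 1247 and 1168 FPKM without injection, 508 and 1332 with PIASy-Mut and 3354 and 3020 with PIASy-WT, and its differences of 1.40 from non-injection (SE 0.47, adjusted p = 0.118, limma) and of 1.95 from PIASy-Mut (SE 0.47, adjusted p = 0.0604) did not pass. The median difference over the 14 genes was 0.32 in both PIASy-WT comparisons. Without Btg4 the sum was 3840 and 3754 CPM without injection, 2796 and 3933 with PIASy-Mut and 5626 and 5198 with PIASy-WT. Against non-injection 1 of the 14 passed as lower, Ythdf2, beside 5.76% of all genes, and 0 as higher, beside 1.03% (limma). Ythdf2, which encodes a reader of N6-methyladenosine that promotes decay of the mRNAs it binds, was at 52.6 and 60.2 FPKM without injection, 67.4 and 42.7 with PIASy-Mut and 15.3 and 21.7 with PIASy-WT, a difference of -1.57 (adjusted p = 0.0457, limma). Against PIASy-Mut it was -1.50 (adjusted p = 0.0502), and 0 of the 14 passed, beside 6.01% of all genes lower and 0.820% higher. At an unadjusted p under 0.05, 4 of the 14 were higher and 1 lower against non-injection, and 5 higher and 1 lower against PIASy-Mut, where 10.6% and 17.6%, and 9.46% and 18.2%, of all genes were. With voom 3 were higher and 1 lower, and 4 higher and 1 lower, beside 4.53% and 12.0%, and 3.87% and 10.8%, of all genes. The summed level of the 2-cell embryo markers in PIASy-WT was below both controls as given above, while that of the decay list was above both. A link between these sums was not tested. Of those 7 markers 0 passed against non-injection (2 were lower at an unadjusted p under 0.05, beside 17.6% of all genes, and 2 with voom, beside 12.0%), and 1, Tcstv3, was lower against PIASy-Mut (-1.39, adjusted p = 0.0499, limma), beside 6.01% of all genes. Against PIASy-Mut 3 of the 7 were lower at an unadjusted p under 0.05, beside 18.2% of all genes, and 1 with voom, beside 10.8%. Of the cumulus and granulosa markers 3 of 12 could be tested, and 1, Amhr2, was lower against non-injection (-1.86, adjusted p = 0.0427, limma), beside 5.76% of all genes, on 3 and 4 fragments with PIASy-WT against 22 and 17. The 2 others had positive differences, Tnfaip6 1.05 (adjusted p = 0.154, limma) and Cyp19a1 0.29 (adjusted p = 0.751). At an unadjusted p under 0.05, 1 was higher and 1 lower, beside 10.6% and 17.6% of all genes. With voom 0 were higher and 1 lower, beside 4.53% and 12.0%.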

How the data were processed

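Total RNA from pools of 5 embryos was made into cDNA with an oligo-dT primed kit (SMART-Seq v4, 11 cycles) and into libraries with 13 cycles, and sequenced as paired reads of 50 and 25 bases. The authors trimmed reads at Q20 with Trim Galore, mapped them to mm10 with STAR, assigned uniquely mapped fragments to genes with featureCounts and deposited the levels as FPKM. Versions, the annotation release and the use of strand were not given in the sources used here. Spike-in RNA was added at lysis, but no spike-in values were used here. Products of the deposited FPKM and gene length were expressed in units of the smallest one above 0 in each library, taken as 1 fragment, and all came out whole (tolerance 0.01).

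The 16100 genes that reached 1 FPKM in 2 or more libraries were tested on log2(FPKM + 1), which understates changes of low genes, with limma 3.58.1 (lmFit, eBayes with trend, R 4.3.3) over all 6 libraries, with 3 residual degrees of freedom and Benjamini-Hochberg adjustment at 0.05. The study's own test on counts was replaced because FPKM was deposited, and voom with TMM scaling was run on the recovered fragments as an alternative. All 8 genes passed the filter. Other settings were a pseudocount of 0.1, no filter, an FPKM of at least 5, quantile normalization, only the groups compared, a replicate block and each library left out. Intervals on fragments are exact Poisson and cover counting error only. Depth ran from 871663 to 1363928 fragments. The labels do not say that replicate pools came from separate collections. The paper gives n = 2 for this sequencing and uses n for biological replicates, without saying whether the pools were collected separately. The p values measure the spread between these pools, which may be technical in part. Transcript ends came from GENCODE M21, the same build. No 50-base stretch of the 8 genes was shared with another gene's transcript. All 8 genes were named whatever their values; of the other lists, called genes were named first by size. The genes and lists were chosen with earlier results of these data known.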

Additional observations from a re-analysis of the deposited data

How the results depend on the processing

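Of 336 values of single genes under other settings, 291 kept their direction and side of the threshold, 20 came to pass, 11 ceased to pass and 14 changed sign. Zp3 against non-injection ran from -1.65 to -1.27 (adjusted p 0.00525 to 0.244) and passed in 9 of 14 settings, and against PIASy-Mut from -1.75 to -1.30 (0.00532 to 0.216) in 8 of 14. Bmp15 passed in 6 of 14 and 4 of 14, Gdf9 in 6 of 14 and 0 of 14, and Oosp3 in 0 of 14 and 3 of 14. The difference of Bmp15 from PIASy-Mut ran from 0.89 to 2.07. The number of the 8 genes called higher against non-injection, 0 as reported, was 2 with an FPKM of at least 5, 2 with only the groups compared and 2 with voom (Gdf9 and Bmp15 each time). It was 3 with voom and at least 10 fragments (Zp2 added). The calls over all genes rose too. They were 166 of 16100 as reported, 332 of 8282 with an FPKM of at least 5 and 730 of 16100 with only the groups compared or with voom. With voom and at least 10 fragments they were 971 of 10193. The number called lower, 1 as reported, was 0 with no filter (adjusted p of Zp3 0.0525, limma). Over all genes 154 of 27826 were then lower, where 928 of 16100 were as reported. Against PIASy-Mut, the number higher, 0 as reported, was 1 with an FPKM of at least 5, 2 with voom and 2 with voom and at least 10 fragments. Over all genes the calls were 132 of 16100 as reported and 207 of 8282, 623 of 16100 and 825 of 10193 in that order. The number lower, 1 as reported, was 0 with only the groups compared (adjusted p of Zp3 0.117, limma). In that fit 0 of 16100 genes passed in either direction, and 3776 had an unadjusted p under 0.05. Where a library of the comparison was dropped the fit had fewer samples, and the lone library is assumed to vary like the others. Other causes were not tested.

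Signs changed for small differences. Against non-injection, Oosp1 became -0.089 and Oosp3 -0.031 with quantile normalization, which moved the median of all genes to 0.12. Against PIASy-Mut, Oosp1 became 0.053 with voom and 0.084 with voom and at least 10 fragments, and for PIASy-Mut against non-injection Bmp15 became -0.041 with voom. With 1 library left out at a time, the difference from non-injection ran from -0.10 to 0.52 for Zp1 (negative without non-injection replicate 1, -0.0073, or PIASy-WT replicate 2) and from -0.16 to 0.48 for Oosp2 (negative without PIASy-WT replicate 2). Against PIASy-Mut it ran from -0.050 to 0.81 for Gdf9 and from -0.36 to 1.43 for Oosp2 (both negative without PIASy-Mut replicate 1), and from -0.29 to 0.21 for Oosp1 (0.17 without PIASy-Mut replicate 2, 0.21 without PIASy-WT replicate 2). For PIASy-Mut against non-injection it ran from -0.52 (without PIASy-Mut replicate 2) to 0.66 for Bmp15 and from -1.26 to 0.52 (without PIASy-Mut replicate 1) for Oosp2.

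Whether same-numbered libraries were handled together is not given in the labels. Their deviations correlated at 0.0037 (non-injection with PIASy-Mut), 0.085 (non-injection with PIASy-WT) and 0.064 (PIASy-Mut with PIASy-WT). These low values cannot show that no batch was shared. With the replicate number as a block, Zp3 had an adjusted p of 0.0372 and 0.0331, 1 gene was lower and 0 higher in each PIASy-WT comparison, and over all genes 89 were higher and 719 lower against non-injection, where the fit without it gave 166 and 928. Depth limits Zp1, Oosp2 and Zp3 most, with as few as 21, 26 and 34 fragments in a library.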

Other observations

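Genes whose levels over the 6 libraries followed the oocyte transcripts most closely were sought among 4044 genes with a mean of at least 50 fragments, by the root mean square difference of centred log2(FPKM + 1) profiles. Nearest to the mean profile of Gdf9 and Bmp15 were Copz1 (0.049), Laptm4b (0.051), Meis2 (0.066), BB557941 (0.075) and Cenpv (0.091). Copz1, a subunit of the COPI coat, was at 103 and 108 FPKM without injection, 99.8 and 192 with PIASy-Mut and 264 and 291 with PIASy-WT, so it shared both the high PIASy-WT level and the gap between the PIASy-Mut libraries. Meis2, a TALE homeobox gene, was at 37.8 and 40.2, 36.7 and 73.0, and 89.7 and 100.56 FPKM in the same order.

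Nearest to the mean profile of the 3 zona genes were Ankrd13c (0.047), Eef1e1 (0.054), Nup214 (0.069), Arid2 (0.081) and R3hdm1 (0.081). That mean joins Zp3, which was lower with PIASy-WT, with Zp1 and Zp2, whose differences from both controls were positive and did not pass, so Zp3 was also searched alone, a choice made after its values were seen. Nearest to it were Sgo2a (0.071), Atf1 (0.077), Poldip3 (0.080), Adcy2 (0.081) and Smu1 (0.093). Sgo2a, which encodes a shugoshin that protects cohesin at centromeres, was at 14.2 and 13.5 FPKM without injection, 16.6 and 14.2 with PIASy-Mut and 4.31 and 3.35 with PIASy-WT. The measure runs over 6 libraries in which the groups set most of the spread, and nothing was tested from it.

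Across the 6 libraries the log2(FPKM + 1) values of Zp3 and Bmp15 had a Pearson correlation of -0.92, Zp2 and Gdf9 one of 0.88, and Bmp15 one of 0.78 with both Gdf9 and Oosp3. These describe 6 points that share the 3 groups.

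The 3 zona transcripts share very short 3′ UTRs. In 359 protein-coding genes with one of at most 49 bases, the length in Zp2 and a limit set after the values were seen, the median difference of PIASy-WT was -0.21 from non-injection and -0.23 from PIASy-Mut, beside 0.00 and -0.03 over 9845 genes. Zp3 lay far below these medians, and Zp1 and Zp2 lay above them.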
